A study of Capra hircus with 4 samples.

Results

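The nuclei described here came from the ovary and passed a gate of macrophage genes, with complement C1q transcripts missing or close to missing. A nucleus was taken when it held at least 800 unique molecular identifiers (UMIs, each standing for 1 captured RNA molecule), when at least 3 of the macrophage genes CSF1R, MRC1, VSIG4, MSR1, SYK, TBXAS1 and KCNK13 had a UMI, and when at most 1 of C1QA, C1QB and C1QC had one. CD163, the eighth gene of the macrophage gate, was not analysed here, so the gate worked on 7 genes. Of the 48332 nuclei, 41606 reached 800 UMIs and 521 met the rule. They are called C1q-low macrophages below. Another 528 nuclei passed the same macrophage gate with 2 or 3 of the C1Q genes and are called C1q-high macrophages, and the remaining 40557 nuclei are called other nuclei. The members were chosen by the UMI counts of these 10 genes, so the levels of the 10 are given as a description and were not tested.

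C1q is the recognition part of the first complement component. Its A, B and C chains are encoded by C1QA, C1QB and C1QC, and the assembled protein binds immune complexes and dying cells and starts the classical complement cascade. Macrophages are the main source of C1q in most tissues, and in the ovary they clear cells of atretic follicles and of regressing corpora lutea. Monocytes newly arrived from blood usually express less C1q than long-resident macrophages.

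The study compared ovaries of Nubian goats, chosen for a litter size of 3, and of Du'an goats, chosen for a litter size of 1. Estrus had been synchronised in all animals with a vaginal device holding 300 mg progesterone for 17 days. The goats were about 3 years old. RNA of single nuclei was sequenced from 2 Du'an and 2 Nubian goats in droplets (10x Genomics 3′ chemistry), with 1 library from each goat, so the goat is the replicate. Values of the 4 goats are given below in the order Du'an replicate 1, Du'an replicate 2, Nubian replicate 1 and Nubian replicate 2. The libraries held 9364, 10893, 16988 and 11087 nuclei, of which 48, 140, 208 and 125 were C1q-low macrophages. Levels are given as CPM, the UMI count of a gene summed over the nuclei of a goat and class and scaled to the same total in each. The C1q-low sums held 345339, 1056878, 1208947 and 1497559 UMIs. Across libraries 361 nuclear barcodes occurred more than once, and 9 C1q-low nuclei carried one of them.

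The libraries did not stand on equal footing. Du'an replicate 1 gave the fewest C1q-low nuclei, and Nubian replicate 1 carried the most transcripts of other cell types. At least 3 marker genes of another cell type were seen in 8.33%, 30%, 59.6% and 17.6% of the C1q-low nuclei, 192 of 521 in total. Nubian replicate 2 had the deepest C1q-low nuclei, with medians of 4879, 5540, 3651 and 8491 UMIs.

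The gate genes were abundant in the C1q-low as in the C1q-high macrophages. MRC1, a mannose receptor that takes up glycoproteins, reached 736, 388, 435 and 269 CPM in C1q-low nuclei, against 702, 433, 690 and 192 CPM in C1q-high nuclei and 2.13 to 10.85 CPM in other nuclei. VSIG4, a complement receptor of resident macrophages, stood at 481, 422, 390 and 319 CPM. CSF1R, the receptor for the main macrophage growth factor, was lower, at 127, 216, 189 and 154 CPM. Both macrophage classes lay far above other nuclei for each of the 7 genes. Compared within each goat, CSF1R and MSR1, a scavenger receptor, were lower in C1q-low than in C1q-high nuclei in all 4 goats. VSIG4, SYK, a kinase that couples immune receptors to signalling, and KCNK13, a potassium channel known from microglia and other macrophages, were higher in all 4, with KCNK13 at 430 to 675 CPM against 170 to 361 CPM. MRC1 and TBXAS1, the thromboxane synthase, went either way. Of the 521 nuclei, 108 held 3 of the gate genes, 117 held 4, 102 held 5, 104 held 6 and 90 held all 7.

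The C1Q genes split the classes by construction. C1QA reached 20.3, 60.6, 24.0 and 12.02 CPM in C1q-low macrophages and 3534, 2361, 3056 and 828 CPM in C1q-high macrophages. No C1Q UMI at all was found in 337 of the 521 nuclei (64.7%), and the other 184 held UMIs of 1 C1Q gene. The 254 C1Q UMIs of the class were spread thinly, with at most 5 in a nucleus. Granulosa nuclei, the follicle's steroid-producing support cells, should lack C1q, and they gave 1.17 to 5.85 CPM of C1QA at a median depth of 4662 UMIs against 5070 UMIs in C1q-low nuclei. After each nucleus was thinned to 800 UMIs, C1QA was seen in 3.61%, 7.07%, 3.12% and 1.73% of C1q-low nuclei and in 0.143%, 0.747%, 0.358% and 0.513% of granulosa nuclei. Without thinning the shares were 12.5%, 25%, 11.1% and 12.8% in C1q-low and 0.895%, 3.28%, 0.987% and 1.8% in granulosa nuclei. In Nubian replicate 2 other nuclei as a whole held 30.2 CPM of C1QA, above the C1q-low level of that goat.

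**Figure D1:**
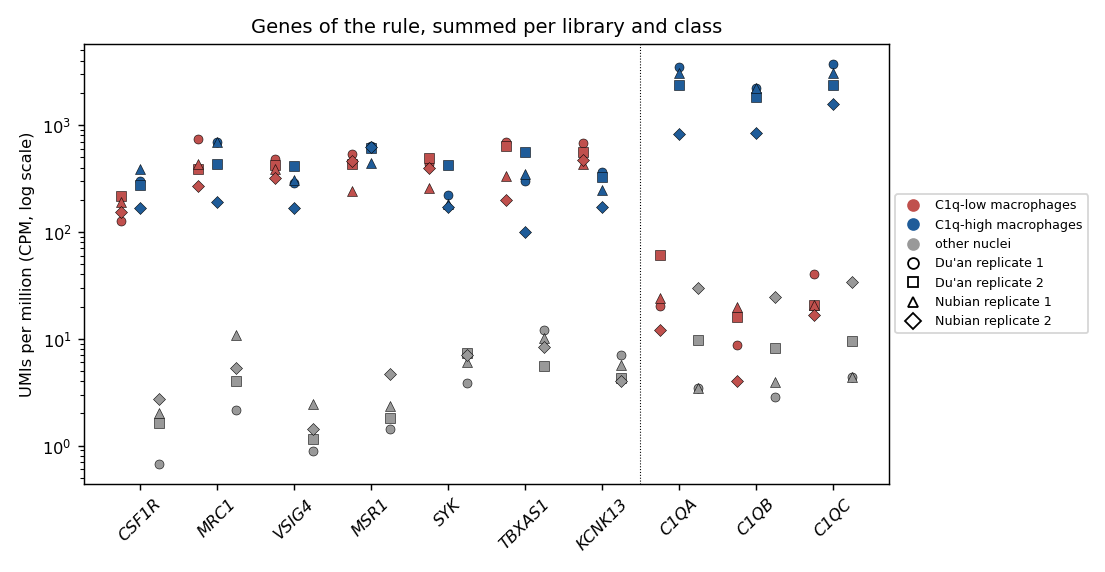
Levels of the 7 gate genes and the 3 C1Q genes (CPM, log scale) in C1q-low macrophages, C1q-high macrophages and other nuclei, 1 symbol per goat. The gate genes lie at 99.4 to 736 CPM in both macrophage classes, while C1QA falls from 828 to 3534 CPM in C1q-high nuclei to 12.02 to 60.6 CPM in C1q-low nuclei.

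The values at the edges of the rule were as follows. Nuclei with 2 gate genes and at most 1 C1Q gene, just outside, carried 1054 CPM of a summed list of 21 pan-leukocyte genes, and those with 3, just inside, carried 2901 CPM. A summed list of 9 granulosa genes stood at 2846 CPM just outside and 3042 CPM just inside, above the leukocyte list, and at 468 CPM in nuclei with all 7 gate genes. Nuclei with 0 and 1 gate gene carried 331 and 476 CPM of the leukocyte list. On the C1Q side, nuclei with 1 C1Q gene had 160 CPM of C1Q and a median of 6046 UMIs. Those with 2 C1Q genes, just outside, had 438 CPM and 8440 UMIs, and those with 3 had 5395 CPM and 21954 UMIs. Only 16 C1q-low nuclei had 800 to under 1000 UMIs, and 9 nuclei of 600 to under 800 UMIs would have joined them.

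Depth moved with the split. The share of C1q-low nuclei among all gated macrophages was 89.7% at 800 to under 1500 UMIs (52 of 58, exact 95% binomial interval 78.8% to 96.1%), 49.5% at 6000 to under 12000 UMIs (139 of 281, 43.5% to 55.5%) and 13.6% at 24000 or more UMIs (29 of 214, 9.27% to 18.9%). These intervals pool the nuclei of all goats and leave out the spread between goats. By goat the shares were 80.0%, 72.7%, 97.1% and 100% in the shallowest of these bands. They were 61.1%, 37.2%, 63.6% and 61.5% at 6000 to under 12000 UMIs, all outside the pooled interval. At 24000 or more UMIs they were 14.3%, 11.1%, 26.3% and 12.5%. C1q-high nuclei had a median of 15265 UMIs, 3 times that of C1q-low nuclei. When each nucleus was thinned to 800 UMIs, 137 of the 528 C1q-high nuclei still passed the gate, and 85 of these (62.0%) would have been assigned to the C1q-low class. That depth is the floor of the rule, while the median C1q-low nucleus had 5070 UMIs. The 62.0% therefore does not estimate misassignment at the depths of most C1q-low nuclei. A shallow nucleus of the C1q-low class cannot be told apart from a C1q-positive one that was sampled too thinly. At 12000 or more UMIs, 86 C1q-low nuclei (7, 13, 23 and 43 by goat) had 25.6 CPM of C1Q, against 4860 CPM in 301 C1q-high nuclei and 4.19 CPM in other nuclei of that depth. They still carried 4664 CPM of the pan-leukocyte list, against 6903 CPM in the deep C1q-high and 146 CPM in the deep other nuclei.

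**Figure D2:**
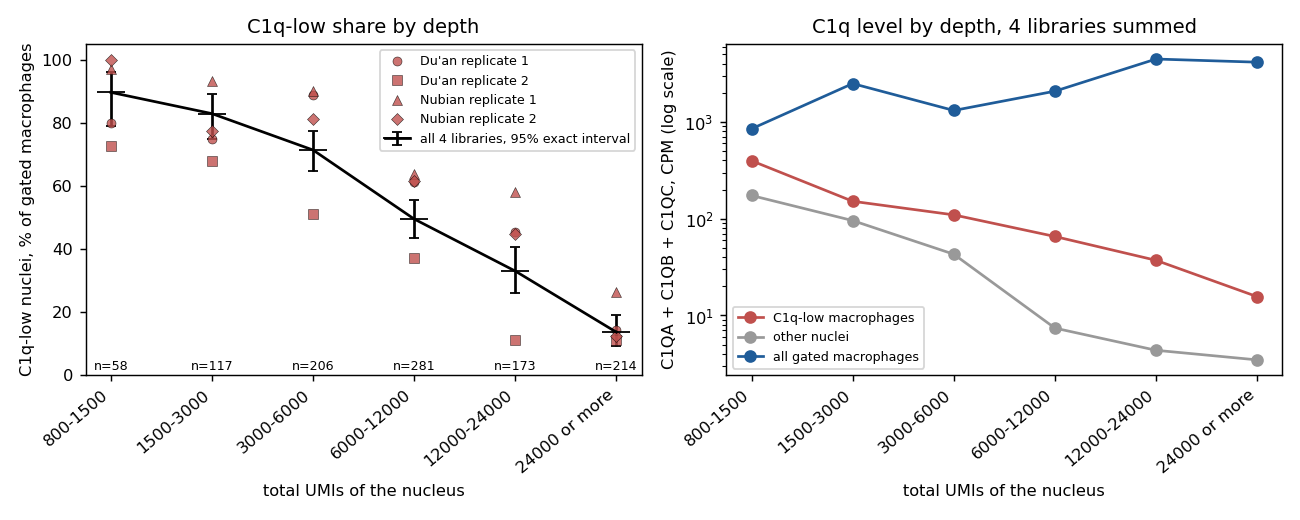
Left, C1q-low nuclei as percent of gated macrophages in 6 bands of total UMIs, for all goats with an exact 95% binomial interval that covers counting error only (line) and for each goat (symbols). Right, summed C1Q level (CPM, log scale) of C1q-low, all gated and other nuclei in the same bands. The share fell from 89.7% in the shallowest to 13.6% in the deepest band.

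C1q-low macrophages made up 0.625%, 1.40%, 1.38% and 1.41% of the nuclei with at least 800 UMIs. Du'an replicate 1 was low and the other 3 goats were almost equal. The mean share was 1.01% ± 0.548 (SD, n = 2) in Du'an and 1.40% ± 0.0250 (SD, n = 2) in Nubian goats, and a two-sided exact permutation test gave p = 0.667, where 2 goats against 2 cannot go below 0.333. With the gate applied after thinning to 800 UMIs the direction turned, with 0.760% in Du'an and 0.523% in Nubian goats (exact permutation p = 1). Among gated macrophages the C1q-low share was 60.8%, 35.7%, 77.0% and 40.6%, and the breeds overlapped (exact permutation p = 0.667). The difference between breeds was not detectable with 2 goats each.

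The genes that the rule did not use gave these nuclei a myeloid profile. C1q-low sums were compared with the sums of other nuclei by edgeR's quasi-likelihood test on counts, with each goat a block, p-values adjusted after Benjamini and Hochberg and the rule genes left out. Of 15350 genes tested, 4271 were called (27.8%). Of these, 2402 were higher in C1q-low macrophages (15.6% of those tested) and 1869 were lower (12.2%) at an adjusted p under 0.05. Without Nubian replicate 2 the counts were 1374 and 731, without Du'an replicate 2 they were 1581 and 1036, and without Du'an replicate 1 they were 1673 and 1063. The largest rise among abundant genes with a symbol was that of CLEC5A, a myeloid C-type lectin that signals through adaptor proteins. It reached 57.9, 36.0, 23.2 and 118 CPM, against 0.182, 0.200, 0.147 and 1.10 CPM in other nuclei (log2 fold change 7.35 ± 0.36 SE, adjusted p = 3.66e-05). The lowest C1q-low value lay above the highest value of other nuclei, which held for 28.9% of the genes tested in either direction.

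Receptors and adhesion genes of phagocytes rose in the same way. ITGAM, the CD11b chain of complement receptor 3, stood at 159, 167, 111 and 161 CPM against 0.806 to 1.95 CPM in other nuclei (log2 fold change 6.84 ± 0.32, adjusted p = 3.66e-05). CLEC4D, a lectin receptor for mycobacterial glycolipids, rose by 7.14 on the log2 scale and varied among goats, at 8.69, 132, 25.6 and 150 CPM. CD300LF, an inhibitory lipid receptor, rose by 6.53. F13A1, the coagulation factor XIII A chain made by macrophages, ranged from 17.4 CPM in Du'an replicate 1 to 136 CPM in Nubian replicate 1 (log2 fold change 7.21). Among intracellular genes, the tyrosine kinase BTK rose by 6.86, and NAIP, an inflammasome sensor, by 7.14. TFEC, a transcription factor of the MITF family found in macrophages, reached 486, 400, 296 and 262 CPM against 1.61 to 4.47 CPM in other nuclei (log2 fold change 7.13).

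Antigen-presentation genes were part of this profile. MARCH1, a ubiquitin ligase that removes MHC class II and CD86 from the surface, reached 689, 848, 409 and 349 CPM (log2 fold change 6.95), CD86 itself, a T-cell costimulatory ligand, 339, 302, 127 and 212 CPM (6.49), and CIITA, the master regulator of MHC class II genes, 206, 195, 125 and 134 CPM (6.59). Values of the 3 genes in other nuclei did not exceed 6.16 CPM. KYNU, an enzyme of tryptophan breakdown, VNN1, a pantetheinase, and MCOLN3, an endolysosomal cation channel, completed the leading genes with log2 fold changes of 6.57, 6.91 and 7.27. MCOLN3 stood at 168, 95.6, 11.6 and 12.02 CPM. All 14 of these genes were also called when only nuclei of 3000 to 15000 UMIs, called matched depth below, were used (13.5% of all genes higher), and when the nuclei with at least 3 markers of another cell type were left out (21.6% higher).

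**Figure D3:**
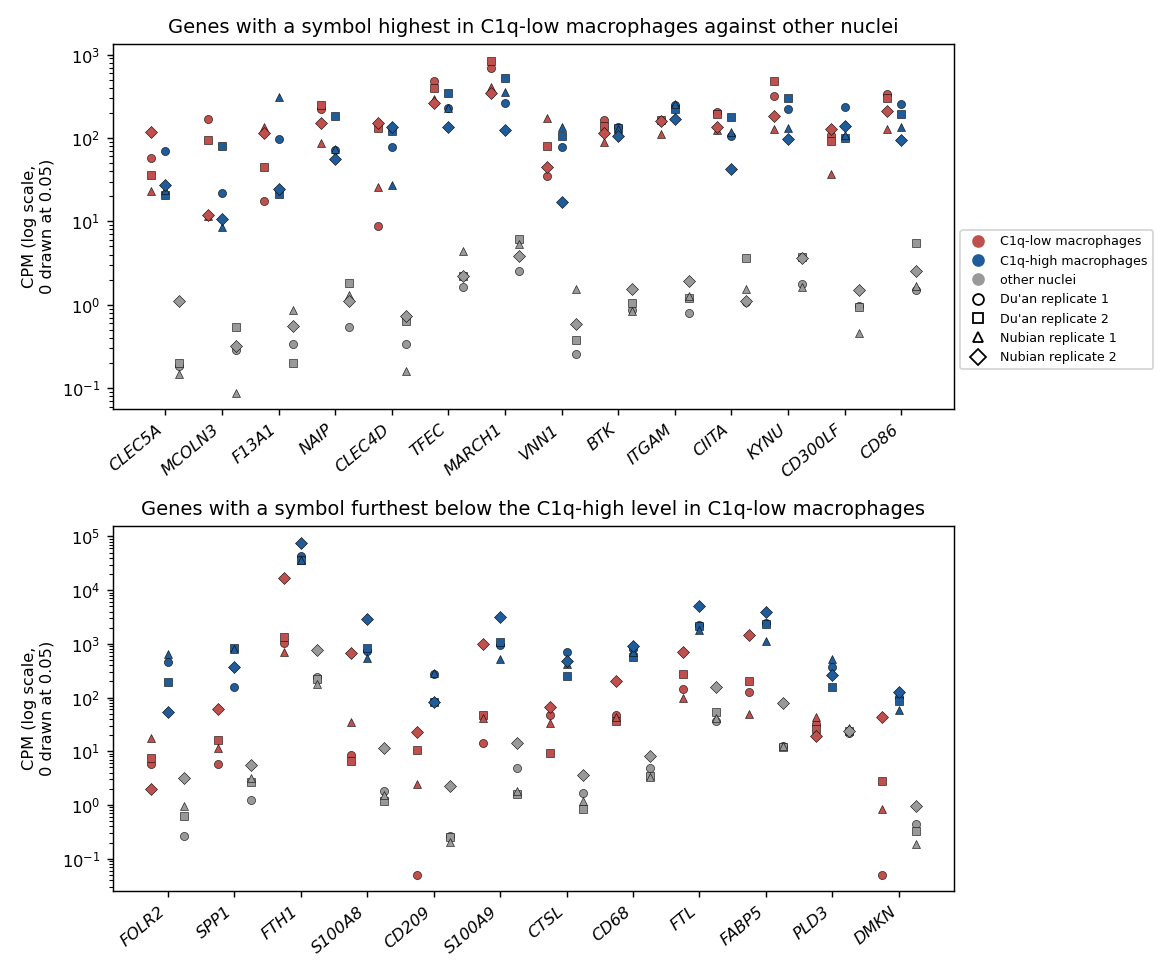
Level (CPM, log scale, 0 drawn at 0.05) of 14 leading genes of C1q-low macrophages against other nuclei (top) and of the 12 genes with a gene symbol and the largest fall below their C1q-high level (bottom, unnamed LOC genes left out), 1 symbol per goat. In the top panel both macrophage classes lie above other nuclei in each goat. In the bottom panel C1q-low nuclei lie between other nuclei and the C1q-high class for most genes.

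The gene lists described the same profile. All 21 tested members of the pan-leukocyte list were higher than in other nuclei, among them PTPRC, the CD45 phosphatase of white blood cells (733, 994, 284 and 434 CPM against 31.9, 228, 53.9 and 54.6 CPM), DOCK2, a Rac activator of leukocytes, and TYROBP, an adaptor of activating receptors. The median log2 fold change of the list was 4.20, against -0.09 over all genes tested. Of 16 myeloid transcription factors 14 rose, where 15.6% of all genes did. ZEB2, a repressor active in myeloid development, was the most abundant and reached 4874, 5005, 2737 and 2909 CPM against 711 to 1090 CPM elsewhere. MITF and RUNX1, factors of the myeloid and other lineages, also rose, by 2.55 and 1.47 on the log2 scale, and SPI1, the PU.1 factor that drives macrophage fate, by 5.73. PPARG, a lipid-sensing nuclear receptor, fell by 1.38. NR1H3, which encodes the liver X receptor alpha, did not pass the test.

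Functions of phagocytes were broadly represented. Of the lysosome genes 17 of 20 rose, with 15.6% of all genes higher for this and the lists that follow, including those for the lysosomal proteases cathepsin B (CTSB, log2 fold change 3.41) and cathepsin D (CTSD, 2.64) and PSAP, the precursor of activators of lipid breakdown (3.49). Of the scavenger and clearance receptors 12 of 17 rose. MERTK, a receptor that binds dying cells through bridging proteins, stood at 779, 792, 511 and 348 CPM against 72.1 to 141 CPM, and CD36, a receptor for oxidised lipids, rose by 3.46. Complement receptors, integrins and the myeloid receptors TREM2 and SIRPA (9 of 10, Fc receptors not analysed here), antigen presentation (9 of 10), lipid handling (10 of 14) and inflammatory cytokines and receptors (12 of 14) followed. IL1A, an inflammatory cytokine, ranged widely at 310, 92.7, 17.4 and 51.4 CPM. Growth factor genes rose in 8 of 14 cases, with TGFB1 at a log2 fold change of 2.58. None of the 9 cycling markers passed the test in edgeR or DESeq2, and 0 had an unadjusted p under 0.05. CENPF, a centromere protein of dividing cells, stood at 26.1, 116, 135 and 208 CPM against 95.7 to 261 CPM in other nuclei.

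Markers of other cell types were mostly lower than elsewhere but not at 0. All 9 granulosa markers fell, and FSHR, the receptor for follicle-stimulating hormone, still stood at 272, 467, 631 and 166 CPM against 1236 to 2063 CPM in other nuclei. The summed granulosa list gave 382, 1699, 2381 and 537 CPM, highest in Nubian replicate 1. Stromal and collagen markers summed to 92.7, 221, 1435 and 82.1 CPM, with COL3A1 at the head in Nubian replicate 1, and edgeR called none of the 8 (1 at an unadjusted p under 0.05), while DESeq2 called 2 lower. All 5 lymphatic endothelial, 7 of 11 T or natural killer, 3 of 8 blood endothelial, 3 of 4 epithelial and 2 of 8 smooth muscle markers fell, where 12.2% of all genes did. PECAM1, an adhesion molecule shared by endothelium and leukocytes, was the 1 blood endothelial marker that rose (log2 fold change 1.31). Of signs of RNA quality, 3 of 15 mitochondrially encoded genes were higher over all nuclei, close to the 15.6% of all genes, and 14 of 15 at matched depth, where 13.5% of all genes were. T-cell genes were rare: the list of 11 summed to 26.1, 88.9, 122 and 22.7 CPM. The part of mixed RNA or of captured doublets in the class was not tested.

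Markers of close relatives of macrophages were also present. Of 6 monocyte markers 4 rose and 1, VCAN, fell. S100A8 and S100A9, calcium-binding proteins of monocytes and neutrophils, were higher than in other nuclei but came largely from Nubian replicate 2, with S100A8 at 8.69, 6.62, 35.6 and 674 CPM and S100A9 at 14.5, 48.3, 41.4 and 976 CPM. Their log2 fold changes against other nuclei were 4.14 and 4.54, and 3.20 and 3.82 without that goat, where both were still called (adjusted p = 0.0184 and 0.0129). FLT3, a growth factor receptor of dendritic cells, reached 57.9, 44.5, 15.7 and 68.1 CPM against 0.520 to 1.07 CPM in other nuclei (log2 fold change 5.74, adjusted p = 0.000142). Of the 7 dendritic markers measured 4 were tested, and BATF3, a factor of cross-presenting dendritic cells, also rose. BANK1, an adaptor best known from B cells, stood at 614, 662, 175 and 183 CPM and rose by 4.14. The defining B-cell genes were at or near 0, with CD79B at 0 CPM in all 4 goats and CD79A, MS4A1 and PAX5 at no more than 2.90 CPM in any.

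The C1q-low and C1q-high macrophages were then compared in the same 4 goats, again with the goat as a block and without the rule genes. The classes were split on counts of the same nuclei, so the comparison describes what else went with the split. Of 9626 genes tested, 5145 were called (53.4%), with 2302 higher (23.9%) and 2843 lower (29.5%) in the C1q-low class. Without Nubian replicate 2 the counts were 1385 and 2243. Far fewer genes were called among nuclei of 3000 to 15000 UMIs, the matched depth. This window narrowed the depths of the classes but did not make them equal. Over the 4 goats, 147 C1q-low and 59 C1q-high nuclei lay at 3000 to under 6000 UMIs. At 6000 to under 12000 UMIs the numbers were 139 and 142. The part of the remaining depth difference in the calls was not tested. At matched depth, 19 of 7174 genes were higher (0.265%) and 327 were lower (4.56%). That fit used 3 goats, since Du'an replicate 1 had only 10 C1q-high nuclei of this depth, and it held fewer nuclei in each. With nuclei of all depths from the same 3 goats, 1770 genes were higher and 2673 lower. Of the 2843 lower genes 302 (10.6%) were also lower at matched depth, and of the 2302 higher genes 19 (0.825%) were also higher at matched depth. Without the goat as a block edgeR called 9 genes, all lower (0.0935%).

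FOLR2, a folate receptor of tissue-resident macrophages, had the largest difference among the abundant genes with a symbol that were lower in each goat. It stood at 5.79, 7.57, 17.4 and 2.00 CPM in C1q-low against 465, 192, 643 and 54.3 CPM in C1q-high macrophages (log2 fold change -5.35 ± 0.28 SE, adjusted p = 9.12e-05). In each goat the C1q-low value was lower, and the classes did not overlap, which held for 20% of the genes tested. At matched depth the difference was -3.83 (adjusted p = 0.0160). CD209, a lectin receptor of macrophages and dendritic cells, followed the same pattern, at 0, 10.4, 2.48 and 22.7 CPM against 276, 82.0, 282 and 82.3 CPM (log2 fold change -4.05, matched -2.96). Of the other scavenger receptors, CD36 and CLEC7A fell by 1.19 and 1.02, and MERTK and the iron exporter SLC40A1 rose by 0.63 and 1.36. None of those 4 was called at matched depth, with log2 fold changes of 0.41, -0.27, 0.24 and 0.28 in that order.

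Both ferritin chains and FABP5 were also much lower. FTH1, the ferritin heavy chain, stood at 1045, 1352, 705 and 16669 CPM against 42321, 36829, 35764 and 76250 CPM (log2 fold change -4.79 ± 1.22, adjusted p = 0.0106). Nubian replicate 2 was more than 10 times above the other C1q-low values but still below its own C1q-high value. The call was lost on leaving out any 1 of the other 3 goats (adjusted p from 0.0696 to 0.113). It held without Nubian replicate 2 (-5.43, adjusted p = 0.00118) and at matched depth (-2.65, adjusted p = 0.0207). FTL, the ferritin light chain, stood at 145, 270, 99.3 and 711 CPM against 1811 to 5119 CPM (-3.72, matched -2.12). FABP5, an intracellular fatty acid carrier, stood at 127, 201, 49.6 and 1438 CPM against 1146 to 3962 CPM (-3.67, matched -1.78, without Nubian replicate 2 -4.25). Of 13 lipid-handling genes tested 7 fell and 0 rose, beside 29.5% of all genes lower and 23.9% higher, with a list median of -0.86 against 0.00 over all genes tested.

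Lysosome genes formed the list with the lowest median among the phagocyte functions (log2 fold change -2.08). Of 20 tested, 16 were lower and 0 higher, against 29.5% lower among all genes. The list summed to 3208, 2782, 2526 and 6097 CPM in C1q-low and 16820, 9910, 15840 and 21167 CPM in C1q-high macrophages, with no overlap. CTSD fell by 3.13, PSAP by 2.40, CTSZ by 2.86 and CTSB by 1.80. CD68, a lysosomal glycoprotein used as a macrophage marker, stood at 46.3, 36.9, 43.8 and 201 CPM against 562 to 914 CPM (-3.73, matched -1.62, without Nubian replicate 2 -4.17), and PLD3, an endolysosomal nuclease, fell by 3.62 (matched -1.72). At matched depth 4 of 19 list members were lower, namely CTSZ, GRN, NPC2 and ACP5, with 4.56% of all genes lower. In nuclei of 12000 or more UMIs the summed list was lower in each goat, at 2584, 3138, 1523 and 7153 CPM against 18401, 11973, 18588 and 21563 CPM. In nuclei of 3000 to under 12000 UMIs the sums were closer, at 3196, 2594, 3007 and 3641 CPM against 3054, 4093, 7054 and 5855 CPM, and Du'an replicate 1 with 9 C1q-high nuclei went the other way.

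Some of the leading genes were not called at matched depth. CTSL, a lysosomal protease, was lower by 3.93 over all nuclei and stood at 0.12 in the depth-matched fit (adjusted p = 0.935). S100A9 turned from -3.99 to 0.74 (adjusted p = 0.586), and S100A8 went from -4.65 to -0.11. Without Nubian replicate 2 and over all depths S100A9 stood at -4.65 and S100A8 at -5.56. SPP1, the secreted phosphoprotein osteopontin, was lower by 4.93 over all nuclei, at 5.79, 16.1, 11.6 and 60.1 CPM against 155, 844, 813 and 371 CPM, and its matched value of -1.20 was not called. DMKN, a secreted epithelial protein, was lower by 3.59 and not called at matched depth (-2.10, adjusted p = 0.118).

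A smaller group was called lower under several ways of choosing nuclei, and it was put together after its values were seen. The fits were of all nuclei, of nuclei at matched depth, and of nuclei within the UMI, gene and mitochondrial limits of the study's methods. The last, without the study's doublet step and again without Du'an replicate 1, called 4.46% of genes lower and 0.19% higher. In these fits 6682 genes were tested each time. Of these, 256 (3.83%) were lower each time and 9 (0.135%) were higher each time. The 256 included 36 genes for cytosolic ribosomal proteins. Most of the 256 lay in none of the gene lists. These included 82 without a gene symbol and genes such as ACTB, ACTG1, EEF1A1, PFN1 and PPIA. From the lists, the 256 also held AIF1, FCER1G, TYROBP, LAPTM5 and CD68 of the pan-leukocyte list. Others were the transcription factor CEBPB, the integrin chain ITGB2, and B2M and CTSS of antigen presentation. Over all nuclei CEBPB was lower in 3 goats and higher in 1. The share of each list among genes tested in all 3 fits was not computed. TYROBP stood at 611, 78.5, 179 and 945 CPM against 1325, 794, 1113 and 1473 CPM, a difference of -2.14 over all nuclei and -2.14 at matched depth. FCER1G, the Fc receptor gamma chain, which like TYROBP couples receptors to SYK, stood at 72.4, 103.1, 63.7 and 559 CPM against 607 to 1185 CPM (-2.96, matched -2.28). In the same nuclei thinned to 800 UMIs, 437 genes were lower (18.1% of those tested). They included the 183 of the 256 that were tested there, which is no further support, since the nuclei were shared and the 256 had been chosen for being lower.

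Other genes of the same pathways lay close to their C1q-high levels. PTPRC differed by 0.20 ± 0.25 (adjusted p = 0.504), LYN, a Src-family kinase, by 0.29 ± 0.20 (0.248), BTK by -0.24 ± 0.19 (0.307), TFEC by 0.42 ± 0.21 (0.127) and CIITA by 0.45 ± 0.26 (0.164). These intervals leave room for moderate differences, and edgeR called none of the 5. The pan-leukocyte list as a whole had 2 genes higher, 7 lower and 12 not called, with a median of 0.18, beside 23.9% of all genes higher and 29.5% lower. Without the nuclei that held 3 markers of another cell type, 8 were higher and 7 lower, where 22.6% of all genes were higher and 27.5% lower. The myeloid transcription factors had 2 higher, 7 lower and 7 not called, a lower share above the 29.5% of all genes and a higher share below the 23.9%. SPI1 fell by 1.54 over all nuclei and was not called at matched depth (-1.0, adjusted p = 0.168).

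Antigen-presentation genes did not move alike. B2M, the light chain of MHC class I, fell by 2.56, and CTSS, the protease that processes the invariant chain, by 2.18, with matched values of -2.39 and -1.40. CD74, the invariant chain itself, stood at 5948, 850, 1139 and 4990 CPM against 4496, 4975, 6080 and 3567 CPM. It was above its C1q-high value in Du'an replicate 1 and Nubian replicate 2 and below it in the other 2 goats. Over all nuclei it was not called (-1.25 ± 0.70, adjusted p = 0.159), and at matched depth without Du'an replicate 1 it was (-2.89, adjusted p = 0.00220). Of the 10 genes tested, 4 were lower and CD80, a costimulatory ligand, was higher, beside 29.5% of all genes lower and 23.9% higher.

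Ribosomal protein transcripts were lower as a group. Of 69 tested, 62 were lower and RPS24 was higher, with a median of -1.67, where 29.5% of all genes were lower. At matched depth 40 of 56 were lower and 0 higher, with a median of -1.72, where 4.56% of all genes were lower. Sums and medians over nuclei differed in size. At 3000 to under 12000 UMIs the ribosomal list summed to 3156 CPM in C1q-low and 9804 CPM in C1q-high nuclei, while the medians over single nuclei were 1543 and 1994 CPM. The share of ribosomal protein transcripts among all UMIs was 1.81%, 0.450%, 0.520% and 3.1% in C1q-low and 3.46%, 2.58%, 2.62% and 3.83% in C1q-high macrophages, lower in each goat. RPS19 stood at 904, 247, 285 and 1693 CPM against 2005, 1634, 1604 and 2227 CPM (-1.92, matched -2.15). Without the nuclei that held 3 markers of another cell type, 61 of 63 were lower (27.5% of all genes). None of the 15 mitochondrially encoded genes was called by edgeR (0 at an unadjusted p under 0.05) and 1 was higher in DESeq2. Their share of UMIs was 4.93%, 7.43%, 3.49% and 8.19% in C1q-low against 4.32%, 5.71%, 3.74% and 3.67% in C1q-high nuclei. Transcripts of ribosomal proteins and ferritin are abundant in cytoplasm, and the part of cytoplasmic RNA carried by the nuclei was not tested.

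**Figure D4:**
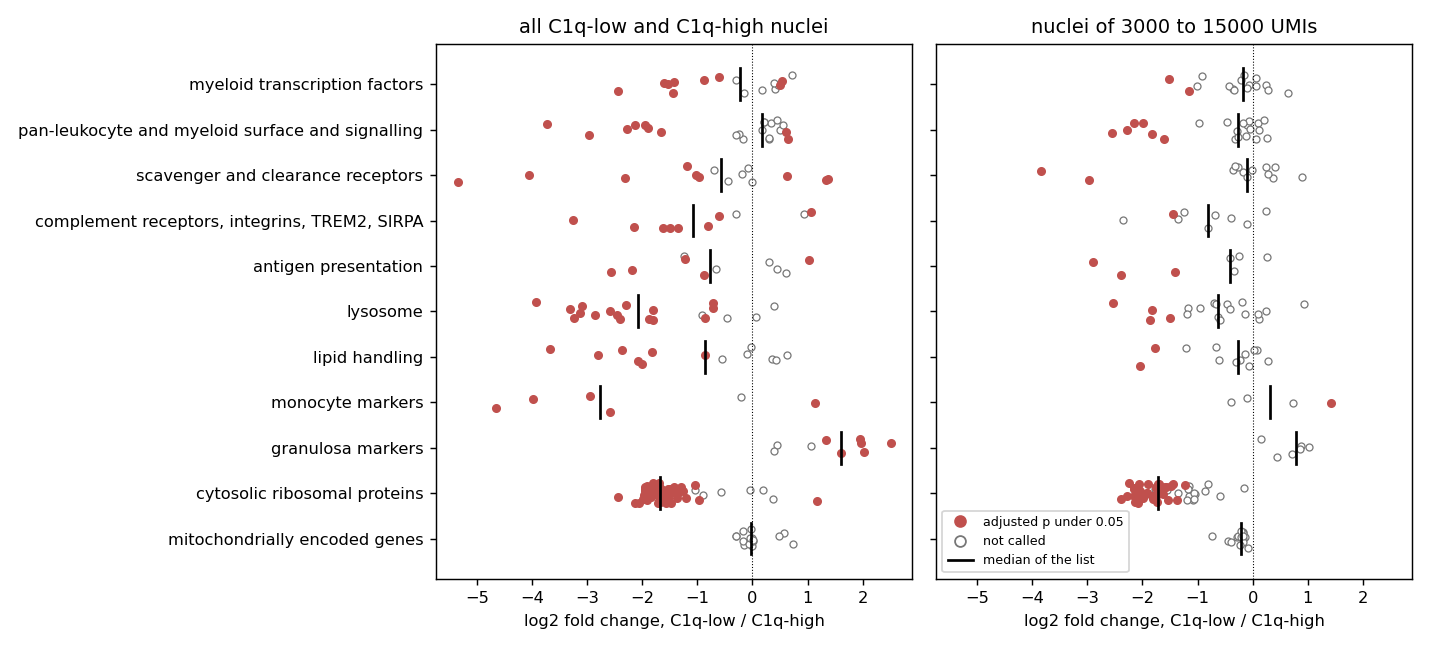
Log2 fold change of C1q-low against C1q-high macrophages for the tested members of 11 gene lists, over all nuclei (left, 4 goats) and for nuclei of 3000 to 15000 UMIs (right, 3 goats). Filled points passed an adjusted p under 0.05 and bars mark list medians. Lysosome genes move from a median of -2.08 to -0.62, while ribosomal protein genes stay near -1.7.

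Complement receptors, integrins and related receptors had 7 of 10 members lower, where 29.5% of all genes were, with TREM2, a lipid-sensing receptor that signals through TYROBP, at 2.90, 21.8, 10.7 and 101 CPM against 197, 128, 187 and 371 CPM (-3.25, matched -2.34 with adjusted p = 0.0532). Of the monocyte markers 4 of 6 were lower. VCAN, a matrix proteoglycan made by monocytes and also by granulosa cells, was higher, at 799.2, 825, 705 and 634 CPM against 401, 336, 632 and 75.7 CPM (1.13, adjusted p = 0.0402). It was the only monocyte marker called at matched depth (1.42, adjusted p = 0.0233), and its level in other nuclei was 872 to 1935 CPM. FLT3 was higher over all nuclei (2.67, adjusted p = 0.00816) and not called at matched depth (1.47, adjusted p = 0.451). Against 23.9% of all genes higher and 29.5% lower, cytokine genes had 1 member higher, 1 lower and 10 not called. Growth factor genes had 2 higher, among them PDGFC, and 4 lower, among them SPP1. Of the cycling markers 3 of 9 were lower, MKI67 among them, close to the share of all genes, and edgeR called none of the 4 tested at matched depth (0 at an unadjusted p under 0.05).

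The genes of at least 50 CPM and with a symbol that had the largest differences towards C1q-low macrophages held no member of the myeloid lists. The 12 were TC2N, GNA14, FAM124A, ANO4, COL4A5, ADAMTS3, ST6GALNAC3, FST, SGCD, ADAMTS9, FGF14 and PTPRT, with log2 fold changes of 2.44 to 2.83. FLT3 lay in the same range at a lower level. FST, which encodes the activin-binding follistatin of granulosa cells, stood at 55.0, 137, 141 and 54.1 CPM in C1q-low, 1.46, 29.4, 41.4 and 3.49 CPM in C1q-high, and 440 to 794 CPM in granulosa nuclei. Means over the goats were higher in other nuclei than in C1q-low macrophages for all 12. Of the 9 granulosa markers 6 were higher in C1q-low nuclei, FST included, against 23.9% of all genes, with FSHR at 1.98 and NR5A2 at 1.95. At matched depth edgeR called none of the 6 granulosa markers tested (0 at an unadjusted p under 0.05), and ST6GALNAC3, a sialyltransferase, was the only one of the 12 still called (2.10, adjusted p = 0.0232). Of other lists few members were tested. Higher were 2 of 2 smooth muscle markers (MYH11 and ACTA2), 3 of 5 stromal markers (LAMA2, NR2F2 and COL3A1), 1 of 3 blood endothelial markers (VWF) and the 1 lymphatic marker tested (MMRN1). The part of mixed RNA in these differences was not tested.

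The 9 genes higher under all 3 ways of choosing nuclei were ANTXR2, GPC6, LDB2, LIMCH1, PCLO, PTPRK, ST6GALNAC3, TOX and UNC5C, named after their values were seen. Over all nuclei UNC5C was higher in 3 goats and lower in 1. The fits at matched depth and within the study's limits did not include Du'an replicate 1. ANTXR2, an anthrax toxin receptor that binds collagen, stood at 391, 403, 359 and 177 CPM against 129, 108, 113 and 40.8 CPM (log2 fold change 1.6 ± 0.18, adjusted p = 0.000628). The lowest C1q-low value lay above the highest C1q-high value. PCLO, a presynaptic scaffold protein, did not overlap either, at 75.3, 159, 118 and 43.4 CPM against 16.1, 39.3, 21.7 and 5.85 CPM. TOX, a nuclear factor of lymphoid development, was higher in each goat, at 148, 85.2, 151 and 84.1 CPM against 110, 54.7, 31.1 and 20.4 CPM. Of the 9 genes only ANTXR2 and GPC6 were tested in nuclei thinned to 800 UMIs, and edgeR called neither there (log2 fold changes 0.78 and 0.68, adjusted p = 0.101 and 0.0887, unadjusted p = 0.0229 and 0.0197). Means of all 9 genes were higher in other nuclei than in C1q-low macrophages.

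Between breeds, edgeR called no gene within C1q-low macrophages. Of 9658 genes tested in edgeR, 0 (0%) had an adjusted p under 0.05, and 101 had an unadjusted p under 0.05. DESeq2 called 1 gene (0.0104%), S100A8, as higher in Nubian goats. Its level came largely from Nubian replicate 2, at 8.69, 6.62, 35.6 and 674 CPM by goat. The goats of the 2 breeds did not overlap for 2287 genes (23.7%). In simulated data of this comparison 1% of genes changed 2-fold and 91.5% of genes changed 4-fold were recovered, so moderate differences were not detectable at this size. The simulation changed only genes with enough counts. It gave all genes a fixed dispersion of 0.05, with no further difference between goats of a breed. It therefore does not show that real 4-fold differences would have been found.

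Values of the genes with the smallest p among those without overlap are given without a claim of difference. MCOLN3 had a log2 fold change of -3.38, Nubian against Du'an, from the values given above. BANK1 stood at 614 and 662 CPM in Du'an and 175 and 183 CPM in Nubian goats. BIRC3, an inhibitor of apoptosis in the NF-κB pathway, stood at 151 and 135 against 30.6 and 44.7 CPM. GSAP, a gamma-secretase activating protein, stood at 153 and 215 against 67.0 and 62.8 CPM, and ADGRE2, an adhesion receptor of myeloid cells, at 17.4 and 33.1 against 0 and 1.34 CPM. On the Nubian side, TC2N stood at 143 and 96.8 against 14.5 and 17.0 CPM, PID1 at 153 and 48.7 against 17.4 and 19.9 CPM, STOX2 at 67.0 and 112 against 23.2 and 11.4 CPM, and PLS1 at 14.9 and 10.02 CPM against 0. TC2N stood at 316 and 593 CPM in the granulosa nuclei of the same Nubian goats and at 37.0 and 108 CPM in those of the Du'an goats.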

How the data were processed

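The deposited matrices hold UMI counts per gene and nucleus, which the authors made with Cell Ranger and did not normalize. The paper names version 5.0.0 and the matrix header 3.1.0. The paper gives the genome as a link to an NCBI assembly number and not by name, RefSeq (ARS1.2) served for names only, and 27165 of 28944 gene names matched it. The authors also deposited 2 tables of marker genes with their own fold changes and p-values, which were not used.

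The members and gene lists were chosen with earlier results of these data known. Nuclei were assigned as described above, with no doublet caller. CPM were computed from UMI counts summed per goat and class. Sums were tested with edgeR 4.0.16 in R 4.3.3 (quasi-likelihood, TMM, filterByExpr), with the rule genes left out, and DESeq2 1.42.0 was an alternative. Classes of fewer than 20 nuclei in a goat were left out of the fit. The named genes were, for classes, the called genes with a symbol (unnamed LOC genes left out) and the largest fold change, the same sign in all goats and at least 50 CPM in the higher class (12 in each direction against C1q-high, 15 higher against other nuclei), for breeds the 5 in each direction with the smallest p and no overlap, and for lists the called members of the highest mean CPM, with others named for their role after their values were seen. A few genes that these rules pick are not reported here. Shares were compared by exact permutation tests in scipy 1.17.1. Intervals cover counting error only. On simulated data the comparison with C1q-high nuclei recovered 59% of genes changed 2-fold and 98% of genes changed 4-fold, and the comparison with other nuclei 52% and 100%. The simulations gave all genes the same dispersion, changed only genes with enough counts, and added goat effects except between breeds. Alternatives were nuclei of at least 1500 UMIs, at least 4 gate genes, no C1Q UMI, and the study's filter without its doublet step. That filter kept UMI and gene counts within 2 SD of the mean and at most 20% mitochondrial UMIs. Further alternatives were no nuclei with 3 markers of another type, the gate after thinning to 800 UMIs, DESeq2 and its size factors. The rest were no filter on low counts, each goat left out and the block changed. Matched depth, thinning of each nucleus and a crossed block were added after the data were seen.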

Additional observations from a re-analysis of the deposited data

Results flagged for a closer look

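In 14 of 67 values examined, 1 goat stood apart from the other 3 by a gap to its neighbour that made up most of the range (Dixon's test at the 95% level), a criterion that chance alone meets in about 1 of 20 groups. Nubian replicate 2 had the highest value in 8 of them. These were the summed monocyte markers (2588 CPM against 828 to 929 CPM in the other goats), FTH1 (16669 CPM), S100A8 (674 CPM), S100A9 (976 CPM), CD68 (201 CPM), FABP5 (1438 CPM), DMKN (42.7 CPM) and PTPRT (86.8 CPM). C1q-low nuclei of that goat also had the highest median depth (8491 UMIs) and the highest share of ribosomal protein UMIs (3.1%).

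Nubian replicate 1 stood apart for the summed blood endothelial markers (441 CPM), the summed stromal and collagen markers (1435 CPM), FAM124A (232 CPM) and ST6GALNAC3 (148 CPM), each highest there, and for ITGAM (111 CPM), which was lowest there. It also had the largest share of nuclei with at least 3 markers of another cell type (59.6%). Du'an replicate 1 stood apart for its share of C1q-low macrophages, 0.625% of nuclei against 1.38% to 1.41% in the other goats. The part of depth and of mixed RNA in these values was not tested.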

How the results depend on the processing

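Against C1q-high macrophages 2302 genes were higher and 2843 lower. The study's filter without its doublet step left 13 and 305, and nuclei at matched depth 19 and 327. Nuclei thinned to 800 UMIs gave 48 and 437, and no replicate block 0 and 9. S100A9 and CTSL turned to 0.74 and 0.12 at matched depth, where 8 of the 24 named genes kept their call. Leaving out each goat gave 1385 to 1770 genes higher and 2243 to 2673 lower, the fewest without Nubian replicate 2, and cost FTH1 its call without any 1 of the other 3. The gate after thinning could not be fitted here, since 1 goat kept at least 20 nuclei of both classes. Against other nuclei (2402 higher, 1869 lower), thinning gave 1230 higher, leaving out nuclei with markers of another type 3969 lower, and the gate after thinning 2893 lower. Leaving out each goat gave 1374 to 2761 higher and 731 to 2358 lower, with 1374 and 731 without Nubian replicate 2, 1581 and 1036 without Du'an replicate 2 and 1063 lower without Du'an replicate 1. All 14 genes named there stayed called under each alternative run. The breed difference in the share of C1q-low nuclei, 0.383 percentage points, went to -0.237 with the gate after thinning (exact permutation p = 1).

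Between breeds, edgeR called 0 genes under each alternative, with 53 to 1015 genes at an unadjusted p under 0.05, and 1015 without Nubian replicate 1. DESeq2 called 1, S100A8, whose level came largely from Nubian replicate 2. Goats numbered alike share only a number. With the replicate block 0 genes were called (53 at an unadjusted p under 0.05), and deviations of goats with the same number correlated at -0.337 across 9658 genes, which are not independent replicates. With the numbers crossed 0 were called (278). Depth limits the class, since thin sampling alone can move nuclei into it.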

Other observations

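A few genes known from other cell types were seen in C1q-low macrophages beyond the lists' usual members. STAR, the carrier that brings cholesterol to mitochondria for steroid synthesis and is used as a theca marker, stood at 49.2, 26.5, 48.8 and 52.1 CPM in C1q-low nuclei, 203, 117, 284 and 418 CPM in C1q-high nuclei and 1.14 to 3.49 CPM in other nuclei. It rose against other nuclei (log2 fold change 4.27, adjusted p = 0.000208 in edgeR), while the theca genes PTCH1 and CYP11A1 fell by 1.01 and 2.12. Against C1q-high macrophages STAR fell by 2.72 over all nuclei and was not called at matched depth (-0.38, adjusted p = 0.636). CPA3, a carboxypeptidase of mast cells, stood at 11.6, 12.3, 4.14 and 14.02 CPM against at most 0.0780 CPM in other nuclei (log2 fold change 7.39, adjusted p = 0.000752 in edgeR). It was similar in C1q-high macrophages, at 27.8, 10.5, 11.3 and 8.66 CPM.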
